A study of Mus musculus with 16 samples.

Results

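The genes described here are 42 mouse genes known to be switched on by interferon and to act in or regulate antiviral defence. They were chosen by name, with earlier results of these data known. Of these, 40 were measured among the 18193 genes tested, and Isg15 and Ifi44 were not analysed here. The study combined a knockout of the adenosine 2A receptor (A2AR, through which extracellular adenosine signals) with lipopolysaccharide (LPS, an endotoxin of bacterial outer membranes). The 4 groups were A2AR knockout mice given LPS, A2AR knockout mice given saline, wild-type littermates given LPS and wild-type littermates given saline, with 4 arrays in each and 16 in all. All mice were males aged 14 weeks on a CD1 background and from 1 breeding series, LPS from E. coli was given as a single intraperitoneal dose of 20 mg/kg, and ventricular myocardium was studied 24 h later. The knockout line is named in the labels without any restriction to a tissue, so the receptor's loss cannot be placed in heart cells or in other cells. Values are log2 Affymetrix probe set summaries, so a difference of 1 is a 2-fold difference, and the median over all probe sets and arrays was 4.64.

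Interferons are secreted proteins that cells release when Toll-like receptors or cytosolic sensors meet microbial molecules, LPS among them. Type I interferon binds the receptor made of Ifnar1 and Ifnar2, the kinases Jak1 and Tyk2 pass the signal on to Stat2, and Stat2 acts with Irf9 at the interferon-stimulated response element (ISRE) in the promoters of target genes. The proteins made from these genes bind foreign RNA, degrade it, block virus entry or release, or tag proteins for disposal, and some of them damp the same signal.

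The arrays were checked before the members were read. Markers of cardiomyocytes averaged 13.42 to 13.86 in every array, far above the median over probe sets. Wild-type saline arrays 1 and 4 stood apart, since the mean of 8 skeletal muscle markers was 6.88 and 8.41 there, against 4.63 to 5.04 in the other arrays. The transcript of the targeted receptor was not analysed here, so the genotype of each array rests on its label. The labels number the replicates but do not say whether each array held 1 animal or pooled animals. Errors and p-values rest on the spread between these samples, estimated over all 4 groups, not on a known spread between animals. In bulk tissue, fewer cells of a type and less RNA per cell cannot be told apart.

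Promoter sequences were read for the members because ISRE-type sites are how these genes are known to be addressed. The letters searched were GAAA, any 2 bases and GAAA again, the core of the ISRE, on both strands, from 250 bases before to 50 bases after each gene's start (RefSeq, GRCm38.p6). Of the 40 measured members 29 had such a window, and 12 of these (41.4%) held the letters, against 1079 of 27025 genes (3.99%) in the same table. Overlapping matches were kept as separate matches. The 160 bases just before the gene start are shown for Ifit1 (chr19:34640729-34640888, plus strand), Ifit3 (chr19:34583369-34583528, plus strand), Rsad2 (chr12:26456453-26456612, minus strand) and Oas1a (chr5:120907526-120907685, minus strand), which carry the letters and whose rises are described next. Each reads 5′ to 3′ along the gene, and capitals mark the matches.
Ifit1: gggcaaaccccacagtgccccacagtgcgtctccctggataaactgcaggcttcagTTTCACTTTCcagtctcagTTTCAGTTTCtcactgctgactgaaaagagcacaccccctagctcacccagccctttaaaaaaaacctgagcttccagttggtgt
Ifit3: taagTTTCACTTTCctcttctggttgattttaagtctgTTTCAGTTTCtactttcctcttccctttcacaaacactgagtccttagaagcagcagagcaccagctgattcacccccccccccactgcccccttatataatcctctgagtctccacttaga
Rsad2: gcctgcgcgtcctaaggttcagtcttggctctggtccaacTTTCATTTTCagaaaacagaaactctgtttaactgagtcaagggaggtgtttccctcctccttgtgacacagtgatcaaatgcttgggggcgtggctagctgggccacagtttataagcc
Oas1a: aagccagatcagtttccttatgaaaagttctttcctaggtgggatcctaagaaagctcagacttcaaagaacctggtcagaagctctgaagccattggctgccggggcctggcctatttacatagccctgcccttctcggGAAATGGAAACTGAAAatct
Ifit1 and Ifit3 each held a pair of separate matches on the minus strand, Rsad2 held a single match, and in Oas1a 2 matches overlapped close to the start. A match describes letters and is no measurement of binding, and members without a match, such as Ifit2, Oasl2 and Xaf1, also rose after LPS.

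After LPS, 37 of the 40 measured members rose in knockout hearts and all 40 rose in wild-type hearts, and no member fell in either genotype (limma, adjusted p under 0.05 over all genes). Over all genes tested, 11.4% rose and 14.7% fell in knockout hearts, and 9.28% rose and 11.6% fell in wild-type hearts. The members' median difference was 2.38 in knockout hearts, with a range of 0.18 to 6.06, and 2.60 in wild-type hearts, with a range of 0.37 to 5.94. The median over all genes tested was -0.02 in knockout hearts and -0.0035 in wild-type hearts. Every LPS array lay above every saline array for 39 members in each genotype, against 12.3% of all genes in knockout hearts and 10.9% in wild-type hearts, and the exception in both was Ifi27. Leaving out wild-type saline arrays 1 and 4 gave 38 members higher in wild-type hearts, without Oas3 and Ifi27.

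Averaged over the 40 members, the arrays stood at 8.80, 9.02, 8.67 and 8.78 in knockout LPS hearts, against 6.60, 6.38, 6.30 and 6.40 in knockout saline hearts. In wild-type LPS hearts they stood at 8.46, 9.65, 9.42 and 8.64, against 6.36, 6.38, 6.55 and 6.48 in wild-type saline hearts. The LPS and saline arrays did not overlap, and the 4 knockout LPS arrays all lay inside the range of the 4 wild-type LPS arrays. Group means were 8.82 ± 0.15 in knockout LPS, 6.42 ± 0.13 in knockout saline, 9.04 ± 0.58 in wild-type LPS and 6.44 ± 0.09 in wild-type saline hearts (SD, n = 4 each). Single members did not all follow this order, as given further on. The map of members by array shows each member's values.

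**Figure D1:**
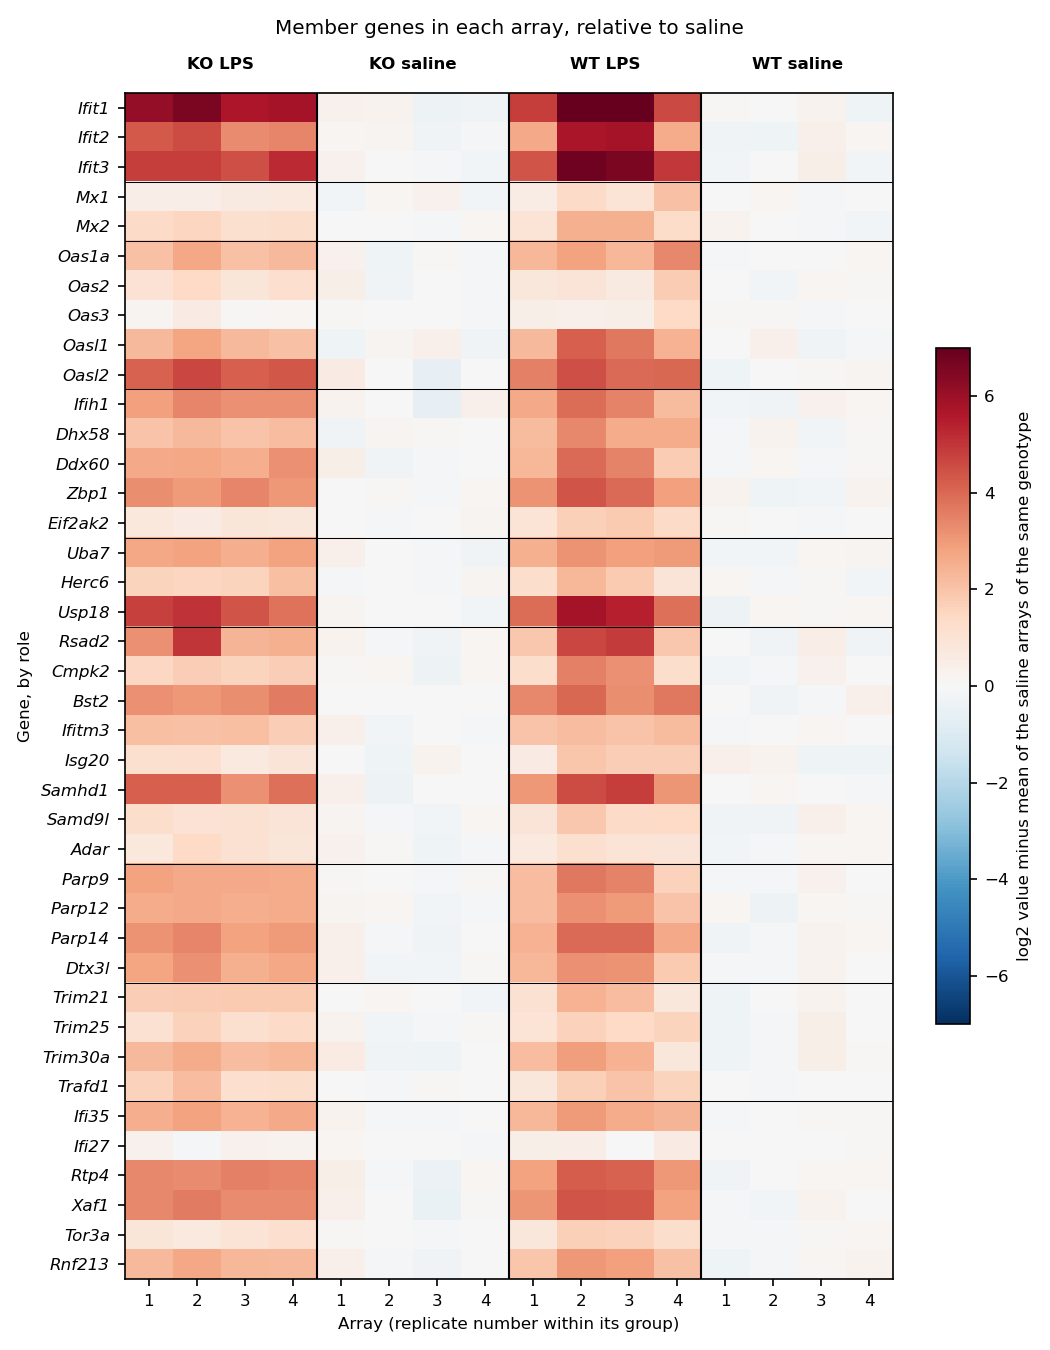
Heat map of the 40 members (rows, by role) in the 16 arrays (columns, by group and replicate number), coloured by the log2 value minus the mean of the saline arrays of the same genotype. The LPS columns are red for nearly every member, Ifit1 most strongly, Ifi27 and Oas3 stay near white in knockout LPS hearts, and wild-type LPS arrays 2 and 3 are the darkest columns for most members.

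The 3 IFIT genes, whose proteins bind viral RNA that lacks the marks of cellular caps or work as partners in that binding, all rose, and Ifit1 and Ifit3 gave the largest rises of the 40 members in both genotypes. Ifit1 had log2 values of 10.94, 11.37, 10.47 and 10.60 in knockout LPS hearts, against 5.09, 5.06, 4.46 and 4.56 in knockout saline hearts. Wild-type LPS hearts gave 9.82, 12.08, 12.14 and 9.59, against 5.03, 4.94, 5.22 and 4.68 in wild-type saline hearts. It rose by 6.06 ± 0.46 in knockout hearts and by 5.94 ± 0.46 in wild-type hearts, which is 66.5-fold and 61.4-fold (adjusted p = 7.51e-08 and 1.03e-07). The groups were far apart in both genotypes, and the change placed Ifit1 at rank 6 among all genes in each. Ifit3 had log2 values of 11.47, 11.46, 11.15 and 11.84 in knockout LPS hearts, against 6.92, 6.60, 6.50 and 6.43 in knockout saline hearts. The values were 10.40, 12.79, 12.54 and 10.92 in wild-type LPS hearts, against 5.76, 5.93, 6.41 and 5.78 in wild-type saline hearts. It rose by 4.87 ± 0.39 in knockout hearts and by 5.69 ± 0.39 in wild-type hearts (adjusted p = 1.38e-07 and 2.53e-08). Ifit2 rose by 3.91 ± 0.59 in knockout hearts and by 4.21 ± 0.59 in wild-type hearts. These genes lie together on chromosome 19, with no protein-coding gene between Ifit2 and Ifit3 and 3 between Ifit3 and Ifit1.

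The Mx genes encode dynamin-like GTPases that trap viral components, in the nucleus for mouse Mx1 and in the cytoplasm for mouse Mx2. Mx2 rose by 1.29 ± 0.26 in knockout hearts and by 1.80 ± 0.26 in wild-type hearts (adjusted p = 0.00147 and 9.85e-05). Mx1 had log2 values of 3.98, 4.03, 4.15 and 4.23 in knockout LPS hearts, against 3.33, 3.66, 3.85 and 3.32 in knockout saline hearts. Among wild-type hearts, 4.05, 4.91, 4.52 and 5.58 were measured after LPS, against 3.51, 3.67, 3.43 and 3.57 after saline. The LPS values lay above the saline values in both genotypes, the knockout ones by less. In wild-type hearts Mx1 rose by 1.22 ± 0.22 (adjusted p = 0.00072), whereas in knockout hearts the difference was 0.56 ± 0.22 and was not called (adjusted p = 0.0751). Both saline means and the knockout LPS mean fell short of the median over probe sets, so Mx1 was read at low values. No detection call was used, and saline means lay under that median in both genotypes for 5 members, Mx1, Oas3, Ddx60, Dhx58 and Usp18. A difference measured against so low a value can understate the change and is no exact fold. The knockout call appeared under 5 alternative settings, among them the fit of the 2 knockout groups alone (adjusted p = 0.00764). The difference was again 0.56 in that fit.

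The OAS enzymes make oligoadenylates that activate ribonuclease L, which cuts RNA, while mouse Oasl1 has no such activity and restrains Irf7 translation. Of the 5 genes, 4 rose in knockout hearts and 5 in wild-type hearts. Oasl2 rose most, by 4.33 ± 0.22 in knockout hearts and by 4.01 ± 0.22 in wild-type hearts. Oas1a had log2 values of 7.81, 8.48, 7.84 and 8.04 in knockout LPS hearts, against 6.09, 5.48, 5.84 and 5.71 in knockout saline hearts. In wild-type LPS hearts they were 8.31, 8.78, 8.32 and 9.35, against 5.92, 5.95, 5.94 and 6.14 in wild-type saline hearts. No LPS array came near a saline array, and Oas1a rose by 2.26 ± 0.21 in knockout hearts and by 2.70 ± 0.21 in wild-type hearts (adjusted p = 6.6e-07 and 1.03e-07). Oasl1 rose by 2.33 ± 0.33 in knockout hearts and by 3.15 ± 0.33 in wild-type hearts, and Oas2 by 1.12 ± 0.21 in knockout hearts and by 1.03 ± 0.21 in wild-type hearts. Oas3 had log2 values of 3.96, 4.35, 3.87 and 3.89 in knockout LPS hearts, against 3.84, 3.81, 3.77 and 3.67 in knockout saline hearts. Wild-type LPS hearts gave 4.14, 4.09, 4.10 and 5.10, against 3.78, 3.78, 3.61 and 3.68 in wild-type saline hearts. Wild-type LPS array 4 stood alone above the others. Oas3 rose by 0.65 ± 0.18 in wild-type hearts (adjusted p = 0.0134), by 0.40 without that array (adjusted p = 0.00716), and differed by 0.24 ± 0.18 in knockout hearts, which was not called (adjusted p = 0.358). All group means of Oas3 lay under the median over probe sets.

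All 5 sensors and kinases rose in both genotypes. Ifih1, which encodes the double-stranded RNA sensor MDA5, rose by 3.17 ± 0.29 in knockout hearts and by 3.07 ± 0.29 in wild-type hearts. Zbp1, a sensor of Z-form nucleic acids that can start necroptosis, rose by 3.18 ± 0.25 in knockout hearts and by 3.61 ± 0.25 in wild-type hearts. The helicase gene Ddx60 rose by 2.78 ± 0.34 in knockout hearts and by 2.87 ± 0.34 in wild-type hearts, over saline means of 3.90 in knockout hearts and 3.71 in wild-type hearts. Dhx58, which encodes LGP2, a helicase that modulates MDA5 and RIG-I, rose by 2.12 ± 0.18 in knockout hearts and by 2.69 ± 0.18 in wild-type hearts, over saline means of 3.83 in knockout hearts and 3.87 in wild-type hearts. Both genes thus started under the median over probe sets. Eif2ak2 had log2 values of 6.48, 6.31, 6.55 and 6.53 in knockout LPS hearts, against 5.76, 5.56, 5.67 and 5.89 in knockout saline hearts. The values were 6.45, 7.18, 7.32 and 6.85 in wild-type LPS hearts, against 5.58, 5.51, 5.39 and 5.55 in wild-type saline hearts. This gene encodes PKR, a kinase that stops translation when it binds double-stranded RNA. The groups did not overlap in either genotype, and Eif2ak2 rose by 0.74 ± 0.15 in knockout hearts and by 1.44 ± 0.15 in wild-type hearts (adjusted p = 0.00143 and 3.31e-06) at the probe set used. At another, almost as bright (mean of 6.10 over all arrays, against 6.16), it rose by 1.72 in knockout hearts and by 1.81 in wild-type hearts.

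ISG15 is a ubiquitin-like tag that is joined to proteins during infection, and the genes of its conjugation system that were measured all rose. Uba7, the activating enzyme, rose by 2.72 ± 0.15 in knockout hearts and by 2.87 ± 0.15 in wild-type hearts, and Herc6, the main mouse ligase, by 1.67 ± 0.23 in knockout hearts and by 1.57 ± 0.23 in wild-type hearts. Usp18 had log2 values of 8.88, 9.18, 8.51 and 7.90 in knockout LPS hearts, against 4.31, 4.13, 4.09 and 3.91 in knockout saline hearts. Among wild-type hearts, 8.23, 10.15, 9.77 and 8.18 were measured after LPS, against 3.94, 4.45, 4.40 and 4.43 after saline. Usp18 removes the tag and also blocks signalling at Ifnar2. It rose by 4.51 ± 0.37 in knockout hearts and by 4.77 ± 0.37 in wild-type hearts (adjusted p = 1.87e-07 and 1.07e-07), with every saline value under the median over probe sets, so no exact fold is given.

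The 8 genes with direct antiviral functions all rose in both genotypes, by medians of 1.80 in knockout hearts and 2.20 in wild-type hearts. Rsad2 had log2 values of 10.96, 12.76, 10.16 and 10.26 in knockout LPS hearts, against 8.02, 7.63, 7.56 and 7.92 in knockout saline hearts. In wild-type LPS hearts they were 9.98, 12.79, 12.97 and 9.998, against 8.11, 7.86, 8.55 and 7.84 in wild-type saline hearts. Rsad2 encodes viperin, which makes a nucleotide that ends viral RNA synthesis. All LPS arrays lay above all saline arrays, with spreads of 2.60 log2 units within the knockout LPS group and 2.99 within the wild-type LPS group, and Rsad2 rose by 3.25 ± 0.63 in knockout hearts and by 3.34 ± 0.63 in wild-type hearts (adjusted p = 0.00107 and 0.00106). Cmpk2, a mitochondrial nucleotide kinase whose gene is the direct neighbour of Rsad2, rose by 1.61 ± 0.39 in knockout hearts and by 2.30 ± 0.39 in wild-type hearts. Samhd1, which destroys the nucleotides that viruses need for DNA synthesis, rose by 3.85 ± 0.34 in knockout hearts and by 3.88 ± 0.34 in wild-type hearts. Bst2, or tetherin, which holds budding virus at the cell surface, rose by 3.28 ± 0.17 in knockout hearts and by 3.58 ± 0.17 in wild-type hearts. Ifitm3 had log2 values of 12.84, 12.80, 12.84 and 12.48 in knockout LPS hearts, against 11.10, 10.58, 10.74 and 10.62 in knockout saline hearts. Wild-type LPS hearts gave 12.63, 12.82, 12.65 and 12.88, against 10.51, 10.60, 10.76 and 10.69 in wild-type saline hearts. Ifitm3 sits in endosomal membranes and hinders virus fusion, and its arrays were tightly grouped. It rose by 1.98 ± 0.11 in knockout hearts and by 2.10 ± 0.11 in wild-type hearts (adjusted p = 2.73e-09 and 1.5e-09). The exonuclease gene Isg20 rose by 0.96 ± 0.24 in knockout hearts and by 1.49 ± 0.24 in wild-type hearts, Samd9l by 1.05 ± 0.18 in knockout hearts and by 1.37 ± 0.18 in wild-type hearts, and Adar, whose enzyme edits adenosines in double-stranded RNA, by 1.02 ± 0.15 in knockout hearts and by 0.92 ± 0.15 in wild-type hearts.

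The PARP and DTX3L genes encode enzymes that attach ADP-ribose, and a ubiquitin ligase that pairs with Parp9. Their rises lay between 2.61 and 3.11 in knockout hearts and between 2.58 and 3.25 in wild-type hearts. Parp9 had log2 values of 10.23, 10.04, 10.07 and 10.01 in knockout LPS hearts, against 7.45, 7.37, 7.26 and 7.46 in knockout saline hearts. The values were 9.46, 10.99, 10.77 and 8.91 in wild-type LPS hearts, against 7.20, 7.15, 7.58 and 7.30 in wild-type saline hearts. The 4 knockout LPS values lay within 0.222 of each other and the wild-type LPS values over a range of 2.08. The SDs were 0.10 in knockout LPS, 0.09 in knockout saline, 1.01 in wild-type LPS and 0.19 in wild-type saline hearts. The model shares a spread over the 4 groups, so the standard errors given next are equal in both genotypes despite this. Parp9 rose by 2.70 ± 0.32 in knockout hearts and by 2.72 ± 0.32 in wild-type hearts (adjusted p = 1.05e-05 and 1.14e-05). Its partner Dtx3l rose by 2.80 ± 0.25 in knockout hearts and by 2.62 ± 0.25 in wild-type hearts, Parp14 by 3.11 ± 0.29 in knockout hearts and by 3.25 ± 0.29 in wild-type hearts, and Parp12 by 2.61 ± 0.22 in knockout hearts and by 2.58 ± 0.22 in wild-type hearts. No protein-coding gene lies between Parp14 and Dtx3l or between Dtx3l and Parp9 on chromosome 16.

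The 4 ubiquitin ligases and related regulators all rose, by 1.29 to 2.35 in knockout hearts and by 1.38 to 2.06 in wild-type hearts. Trim30a, a regulator of Toll-like receptor signalling in mice, rose by 2.35 ± 0.33 in knockout hearts and by 2.06 ± 0.33 in wild-type hearts. Trim21, a cytosolic antibody receptor, rose by 1.79 ± 0.27 in knockout hearts and by 1.62 ± 0.27 in wild-type hearts, Trim25, a ligase in the RIG-I route, by 1.29 ± 0.17 in knockout hearts and by 1.38 ± 0.17 in wild-type hearts, and Trafd1, which restrains Toll-like receptor signalling, by 1.54 ± 0.22 in knockout hearts and by 1.50 ± 0.22 in wild-type hearts.

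Of the 6 remaining members, 5 rose in knockout hearts and 6 in wild-type hearts. Xaf1, which encodes a partner of the apoptosis inhibitor XIAP, rose by 3.42 ± 0.29 in knockout hearts and by 3.66 ± 0.29 in wild-type hearts. Rtp4, a chaperone for receptors on their way to the cell surface, rose by 3.40 ± 0.26 in knockout hearts and by 3.55 ± 0.26 in wild-type hearts. Ifi35 rose by 2.60 ± 0.13 in knockout hearts and by 2.56 ± 0.13 in wild-type hearts, the ubiquitin ligase gene Rnf213 by 2.41 ± 0.22 in knockout hearts and by 2.47 ± 0.22 in wild-type hearts, and the torsin gene Tor3a by 0.91 ± 0.16 in knockout hearts and by 1.32 ± 0.16 in wild-type hearts. Ifi27 had log2 values of 8.98, 8.58, 8.99 and 8.93 in knockout LPS hearts, against 8.82, 8.65, 8.66 and 8.61 in knockout saline hearts. Among wild-type hearts, 9.25, 9.29, 8.88 and 9.42 were measured after LPS, against 8.82, 8.81, 8.81 and 8.93 after saline. Ifi27 encodes a small membrane protein, and its LPS and saline values overlapped in both genotypes. It rose by 0.37 ± 0.12 in wild-type hearts (adjusted p = 0.036), a call lost in 10 of the alternative settings, and differed by 0.18 ± 0.12 in knockout hearts (adjusted p = 0.306, not called).

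**Figure D2:**
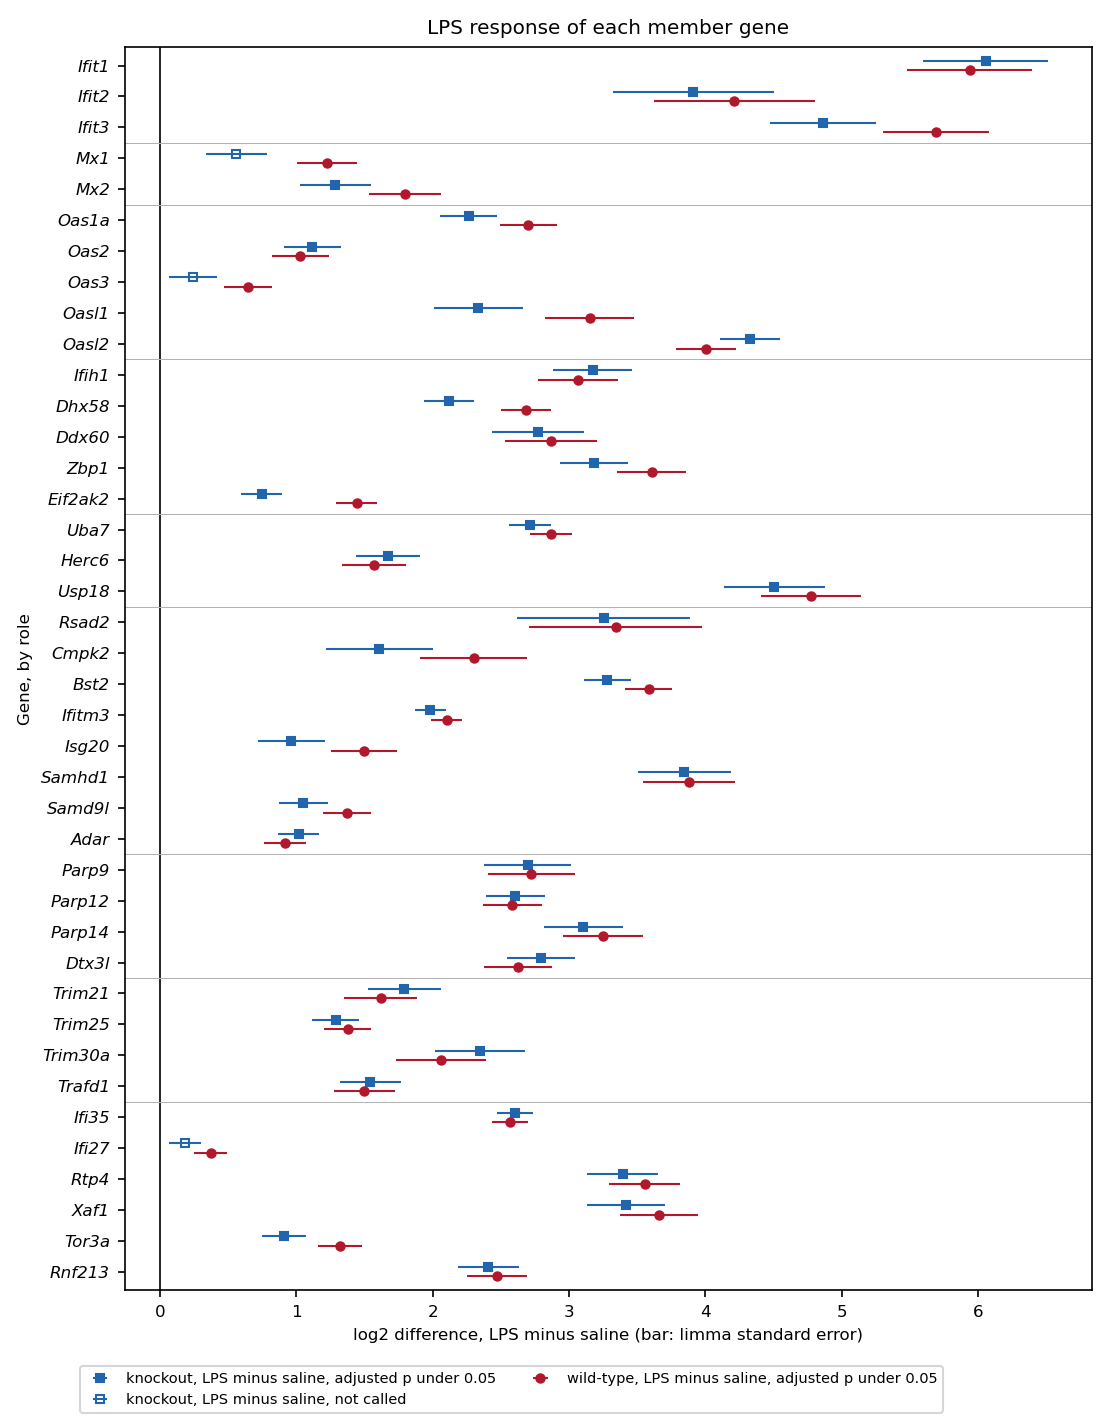
LPS minus saline difference of each member on the log2 scale (x axis) by role (y axis), with knockout hearts as blue squares above wild-type hearts as red circles and limma standard errors as bars. All points lie right of 0, with Ifi27 lowest at 0.18 and Ifit1 highest at 6.06, both in knockout hearts, and the open squares of Mx1, Oas3 and Ifi27 mark the 3 knockout differences that were not called.

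The members spread over a wide range of sizes. In knockout hearts 34 members were at least 2-fold higher after LPS, 24 at least 4-fold, 13 at least 8-fold and 4 at least 16-fold. In wild-type hearts these counts were 37, 26, 14 and 5. Over all 18193 genes tested, the counts were 644, 206, 91 and 44 in knockout hearts and 555, 182, 84 and 31 in wild-type hearts. Among the 100 largest rises of all genes, 13 were members in knockout hearts and 18 in wild-type hearts. The LPS difference was larger in knockout hearts for 12 members and larger in wild-type hearts for 28, and no such difference passed its test, as given further on. The members were read in the same arrays, so these counts are not made of independent genes.

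The choice of probe set mattered for the size of some rises and for whether some were called. Of the 40 members, 22 had more than 1 probe set, and the probe set with the highest mean was used. Over all 75 probe sets of the members, 66 rose in knockout hearts and 70 in wild-type hearts, and none fell. Of the 35 probe sets not used, 6 were not called in knockout hearts and 5 in wild-type hearts. The other probe set of Rnf213 was called in neither genotype (differences of 0.19 in knockout and 0.42 in wild-type hearts). That of Cmpk2 was not called in knockout hearts (0.26), and that of Trafd1 was not called in wild-type hearts (0.22). Herc6 rose by 1.67 in knockout hearts and 1.57 in wild-type hearts at the probe set used, but by up to 5.15 in knockout hearts and 5.21 in wild-type hearts at another. The reverse held for Xaf1, whose other probe set differed by 0.46 in knockout hearts and 0.25 in wild-type hearts, and for Dhx58, whose lowest differences were 0.02 in knockout hearts and 0.06 in wild-type hearts. Samhd1 spanned 1.29 to 3.85 in knockout hearts and 0.94 to 3.88 in wild-type hearts. By contrast, the probe sets of Trim21, Ifi27 and Ifi35 differed by at most 0.15 in wild-type hearts. The probe sets used for Trim25, Ifi35 and Ifi27 are of the kind whose probes can match transcripts of more than 1 gene.

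The wild-type LPS arrays differed more among themselves than the knockout LPS arrays did. The median SD of the members was 0.22 over the knockout LPS arrays and 0.65 over the wild-type LPS arrays. The range was wider in wild-type LPS hearts for 38 of the 40 members, the exceptions being Ifitm3 and Adar, against 50.3% of all genes. The median range was 0.473 in knockout LPS hearts and 1.38 in wild-type LPS hearts, whereas over all genes it was 0.379 in both. Ifit2 had log2 values of 11.27, 11.56, 10.28 and 10.40 in knockout LPS hearts, against 7.10, 7.16, 6.71 and 6.89 in knockout saline hearts. In wild-type LPS hearts they were 9.37, 12.41, 12.53 and 9.31, against 6.47, 6.40, 7.04 and 6.85 in wild-type saline hearts. Arrays 2 and 3 stood well above arrays 1 and 4 in the wild-type LPS group, with the knockout LPS arrays between. Cmpk2 had log2 values of 7.21, 7.46, 7.29 and 7.47 in knockout LPS hearts, against 5.83, 5.89, 5.40 and 5.87 in knockout saline hearts. Wild-type LPS hearts gave 7.12, 9.41, 9.10 and 7.13, against 5.69, 5.78, 6.21 and 5.88 in wild-type saline hearts. Here the knockout LPS arrays lay just above wild-type arrays 1 and 4.

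This order of the wild-type LPS arrays was noticed after the values had been seen and is given as a description. Arrays 2 and 3 both lay above arrays 1 and 4 for 29 of the 40 members (72.5%), against 19.0% of all genes. For 15 members (37.5%), all 4 knockout LPS arrays also lay between these pairs, against 0.599% of all genes. The 15 include the 3 IFIT genes, Rsad2, Cmpk2, Samhd1 and the 4 PARP and DTX3L genes. A different order was seen for Mx1, Oas1a, Oas2, Oas3, Ifitm3 and Ifi27, for which array 4 was highest (15% of the members, against 39.0% of all genes). When limma estimated array weights, wild-type LPS array 4 had the lowest of all 16, 0.217, and knockout LPS array 2 the next, 0.285, against 0.678 to 1.91 in the others. Knockout LPS array 2 was the highest of its group for 23 of the 40 members and the lowest in macrophage and monocyte markers (6.70) and fibroblast markers (8.69). The macrophage and monocyte markers averaged 7.43, 7.22, 6.95 and 8.15 in the wild-type LPS arrays, highest in array 4 and lowest in array 3, and the neutrophil markers averaged 5.97, 5.53, 5.58 and 5.35. Fibroblast markers averaged 9.52, 9.25, 8.77 and 9.86 in these arrays and endothelium markers 8.37, 8.20, 8.14 and 8.88, so both lists were lower in arrays 2 and 3, the reverse of most members. The interferon transcription factors had the members' order, with 7.59, 8.33, 8.17 and 7.66, so the order is not particular to the members. The part of these cells in the order of the arrays was not tested.

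**Figure D3:**
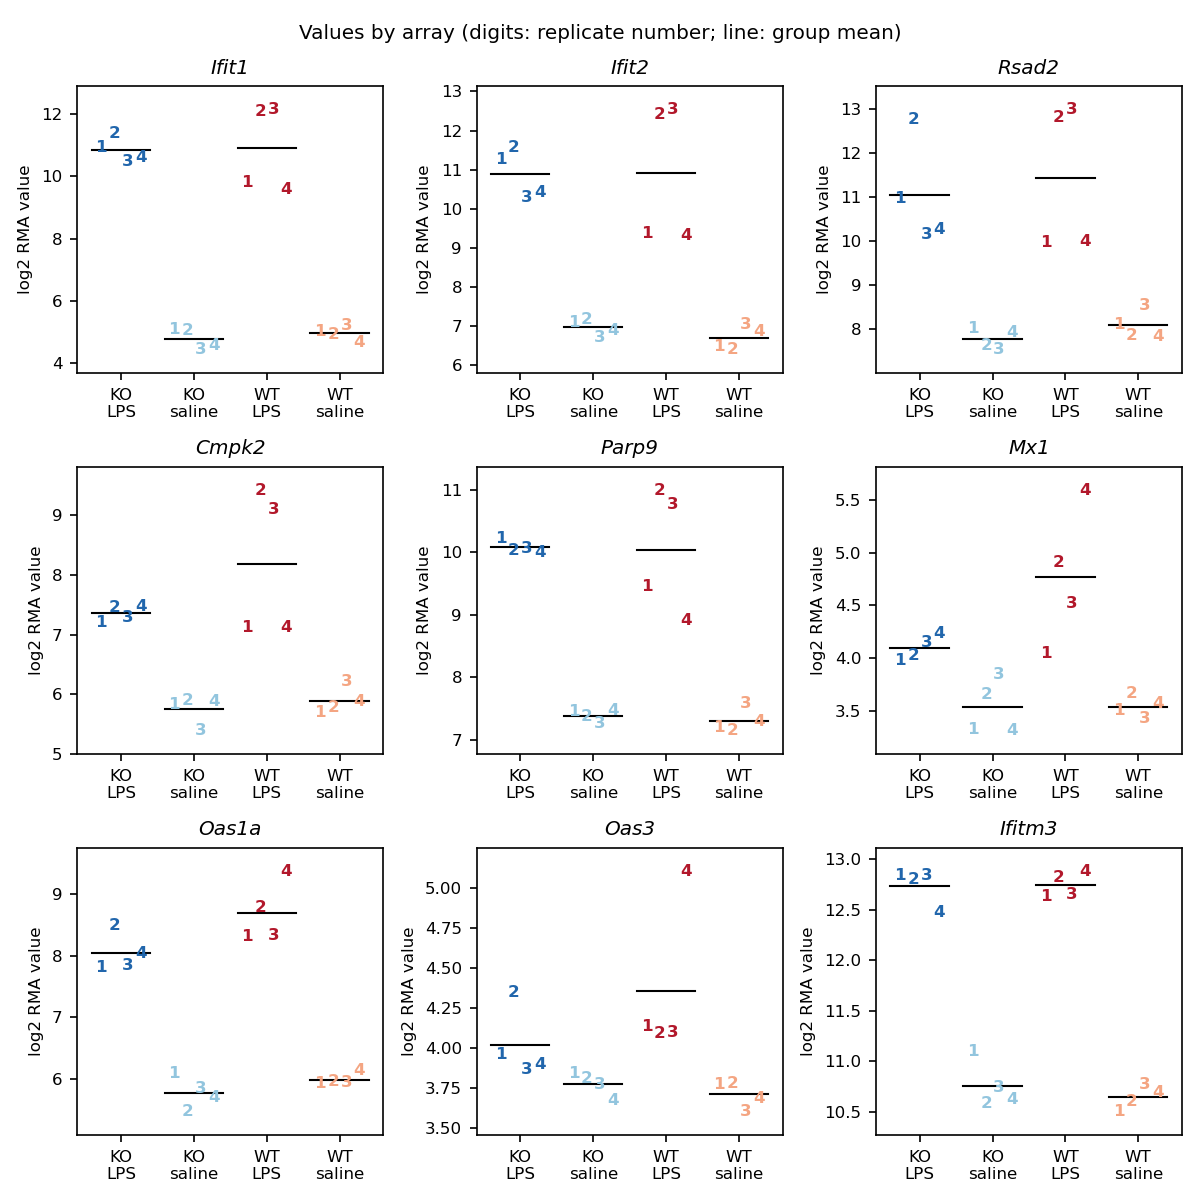
Log2 values (y axis) of 9 members in each array of the 4 groups (x axis), with digits for the replicate number and a line for the group mean. Wild-type LPS arrays 2 and 3 lie above arrays 1 and 4 for Ifit1, Ifit2, Rsad2, Cmpk2 and Parp9, array 4 is highest for Mx1, Oas1a, Oas3 and Ifitm3, and the knockout LPS arrays of Parp9 lie within 0.222 of each other.

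Cell type markers were read beside the shares of all genes, of which 11.4% rose and 14.7% fell in knockout hearts and 9.28% rose and 11.6% fell in wild-type hearts. Of 11 macrophage and monocyte markers 3 rose and 3 fell in each genotype, and their mean per array was 6.70 to 7.39 in knockout LPS against 6.95 to 7.01 in knockout saline hearts, and 6.95 to 8.15 in wild-type LPS against 6.93 to 7.11 in wild-type saline hearts. Of 9 neutrophil markers 5 rose in each genotype, and their mean was 5.83 to 6.15 in knockout LPS against 3.98 to 4.11 in knockout saline hearts, and 5.35 to 5.97 in wild-type LPS against 3.91 to 4.09 in wild-type saline hearts. Of 5 markers of plasmacytoid dendritic cells, which make much interferon, only Bst2 rose in each genotype, and Bst2 is itself a member. Of 9 T and NK cell markers 1 rose and 0 fell in knockout hearts, and 1 rose and 1 fell in wild-type hearts. Of 5 B cell markers 0 rose and 1 fell in each genotype. Of 10 cardiomyocyte markers 0 rose in either genotype, while 4 fell in knockout hearts and 5 in wild-type hearts. Of 8 endothelium markers 1 rose in each genotype, while 3 fell in knockout hearts and 2 in wild-type hearts. Of 8 fibroblast markers 0 rose and 2 fell in each genotype. Of 8 skeletal muscle markers 0 were called in knockout hearts and 1 fell in wild-type hearts. The part of these cells in the members' rises was not tested.

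The other genes of the interferon pathway were taken from 5 lists, counted whole. None of the 7 interferon ligand genes measured was called in either genotype (limma), with 0 in knockout hearts and 1 in wild-type hearts at an unadjusted p under 0.05. Ifnb1, the gene of interferon beta, had values of 3.77, 3.76, 3.58 and 3.85 in knockout LPS hearts, against 3.65, 3.78, 3.74 and 3.66 in knockout saline hearts, and of 3.72, 4.16, 3.87 and 3.83 in wild-type LPS hearts, against 3.75, 3.87, 3.78 and 3.74 in wild-type saline hearts. Those values and all group means of the other 6 ligand genes, Ifng included, lay under the median over probe sets, and the arrays sampled a single time, 24 h. Of 8 receptor and kinase genes, 2 rose and 1 fell in each genotype. The receptor subunit gene Ifnar2 rose by 0.40 in knockout hearts and by 0.63 in wild-type hearts, the kinase gene Jak2 by 0.68 in knockout hearts and by 0.86 in wild-type hearts, and Il10rb, a subunit of interferon lambda and interleukin 10 receptors, fell (differences of -1.26 in knockout hearts and -0.76 in wild-type hearts).

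Of 7 transcription factor genes, 5 rose in each genotype. Irf7 had log2 values of 9.74, 9.82, 9.23 and 9.65 in knockout LPS hearts, against 5.26, 5.08, 4.87 and 5.44 in knockout saline hearts. The values were 9.10, 10.31, 9.98 and 10.20 in wild-type LPS hearts, against 5.26, 4.69, 5.02 and 5.19 in wild-type saline hearts. Irf7 drives the later wave of interferon genes, and it rose by 4.45 ± 0.22 in knockout hearts and by 4.86 ± 0.22 in wild-type hearts (adjusted p = 5.99e-10 and 2.07e-10). The groups were far apart in both genotypes. Stat2 rose by 2.76 ± 0.23 in knockout hearts and by 2.38 ± 0.23 in wild-type hearts and Irf9, its partner in the ISRE-binding complex, by 2.28 ± 0.19 in knockout hearts and by 2.09 ± 0.19 in wild-type hearts. Irf1 rose by 2.30 ± 0.33 in knockout hearts and by 1.77 ± 0.33 in wild-type hearts and Irf8 by 2.14 ± 0.42 in knockout hearts and by 1.43 ± 0.42 in wild-type hearts, while Irf3 and Irf5 were not called.

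Of 6 feedback inhibitor genes, 2 rose in each genotype. Socs3, which acts on signalling by interleukin 6 and related cytokines, rose by 4.26 ± 0.41 in knockout hearts and by 3.99 ± 0.41 in wild-type hearts, and the phosphatase gene Ptpn2 by 1.65 ± 0.24 in knockout hearts and by 1.04 ± 0.24 in wild-type hearts. Of 10 genes that act in sensing upstream of interferon, 6 rose and 1 fell in knockout hearts, and 5 rose and 1 fell in wild-type hearts. Ddx58, which encodes the RNA sensor RIG-I, rose by 2.03 ± 0.20 in knockout hearts and by 2.33 ± 0.20 in wild-type hearts, the endosomal receptor gene Tlr3 by 1.75 ± 0.26 in knockout hearts and by 1.93 ± 0.26 in wild-type hearts and the adaptor gene Myd88 by 2.08 ± 0.23 in knockout hearts and by 1.92 ± 0.23 in wild-type hearts. Mavs, the mitochondrial adaptor of RIG-I and MDA5, fell (differences of -0.78 ± 0.15 in knockout hearts and -0.77 ± 0.15 in wild-type hearts, adjusted p = 0.000845 and 0.00111).

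Knockout hearts were then set against wild-type hearts after LPS, the question being whether the members depend on the A2AR. None of the 40 members was called, and over all genes 1 was called higher (0.0055%) and 0 lower (0%). At an unadjusted p under 0.05 there were 9 members and 1375 of 18193 genes, and the smallest adjusted p of a member was 0.594. The difference was negative for 32 members and positive for 8, with a median of -0.19. Over all genes it was negative for 9800 and positive for 8385, with a median of -0.01. The members were read in the same arrays, so their signs are not independent of each other. Groups did not overlap for 0 members, against 1.08% of all genes with knockout hearts higher and 1.18% with knockout hearts lower.

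The 9 members with an unadjusted p under 0.05 all had lower means in knockout LPS hearts. For Dhx58 the values were 5.83, 6.12, 5.82 and 6.01 in knockout LPS hearts, against 6.08, 7.22, 6.46 and 6.46 in wild-type LPS hearts. The groups overlapped slightly, and the difference was -0.61 (95% interval -0.998 to -0.22, adjusted p = 0.594). It was -0.36 and -0.09 at the other probe sets of Dhx58, which were dimmer. For Tor3a they were 6.61, 6.50, 6.75 and 6.94 in knockout LPS hearts, against 6.70, 7.59, 7.50 and 7.13 in wild-type LPS hearts. The difference was -0.53 (95% interval -0.87 to -0.19), and -0.41 and -0.58 at the other probe sets of Tor3a, neither called. Eif2ak2, whose values are given above, differed by -0.49 (95% interval -0.81 to -0.17), but by 0.09 and -0.41 at its other probe sets. The others were Oasl1 at -0.87, Mx1 at -0.67, Oas1a at -0.65, Isg20 at -0.61, Bst2 at -0.43 and Ifi27 at -0.34. Their adjusted p lay between 0.622 and 0.655, and Ifi27 differed by -0.32 at its other probe set, not called either. Single arrays carried part of these values, since without wild-type LPS array 2 the difference of Dhx58 was -0.39, that of Oasl1 -0.52 and that of Bst2 -0.28, while leaving out wild-type LPS array 4 gave -0.39 for Mx1 and -0.43 for Oas1a.

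Several members with large LPS responses had wide intervals between the genotypes. Knockout minus wild-type after LPS was -0.06 for Ifit1 (95% interval -1.03 to 0.91), -0.03 for Ifit2 (-1.28 to 1.22), -0.46 for Usp18 (-1.24 to 0.32) and -0.40 for Rsad2 (-1.74 to 0.94). Differences of 2-fold in either direction lie inside the intervals of Ifit2, so no statement of equal levels follows. The intervals rest on a spread shared by all 4 groups, saline arrays included. Ifit2 had an SD of 0.63 in knockout LPS and 1.81 in wild-type LPS, against 0.21 in knockout saline and 0.30 in wild-type saline hearts. For members that varied more after LPS, the intervals can therefore be too narrow. The interval was narrow for Ifitm3 (-0.004, -0.25 to 0.24) and for Uba7 (-0.05, -0.37 to 0.28). The positive differences were largest for Ifih1 (0.34, -0.28 to 0.96) and Trim21 (0.29, -0.28 to 0.85).

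After saline, the members were compared to see whether their resting levels depend on the genotype. None of the 40 was called, and over all genes 0 were called higher (0%) and 1 lower (0.0055%). Oasl2 was the only member with an unadjusted p under 0.05, against 634 of all genes. Its values were 5.64, 5.08, 4.51 and 5.05 in knockout saline hearts, against 5.30, 5.64, 5.71 and 5.77 in wild-type saline hearts. The difference was -0.54 (95% interval -1.003 to -0.07, adjusted p = 1), and -0.35 without knockout saline array 3. Ifit3 was the only member whose saline groups did not overlap, against 1.81% of all genes with knockout hearts higher and 2.08% with knockout hearts lower. It had 6.92, 6.60, 6.50 and 6.43 in knockout saline hearts, against 5.76, 5.93, 6.41 and 5.78 in wild-type saline hearts, a difference of 0.64 (95% interval -0.18 to 1.46, adjusted p = 1).

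The LPS responses of the genotypes were compared directly as a difference of differences, knockout minus wild-type. No gene was called in either direction (0% of all genes), with 813 genes and 3 members at an unadjusted p under 0.05. Eif2ak2 had the smallest p of the members, with a difference of -0.70 (95% interval -1.15 to -0.25, adjusted p = 0.959). At its other probe sets the difference was -0.10 and -0.57, so the size rests on the probe set chosen. Mx1 differed by -0.66 (-1.33 to -0.000892) and Dhx58 by -0.57 (-1.12 to -0.01), both with an adjusted p of 0.959. Dhx58 differed by -0.29 and -0.03 at its other probe sets, whose means lay under the median over probe sets. The difference was -0.39 for Mx1 without wild-type LPS array 4 and -0.35 for Dhx58 without wild-type LPS array 2. The calls of Mx1, Oas3 and Ifi27 in wild-type but not in knockout hearts are therefore not shown to differ between the genotypes. The 3 genotype comparisons share arrays, so their values are not independent of each other.

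**Figure D4:**
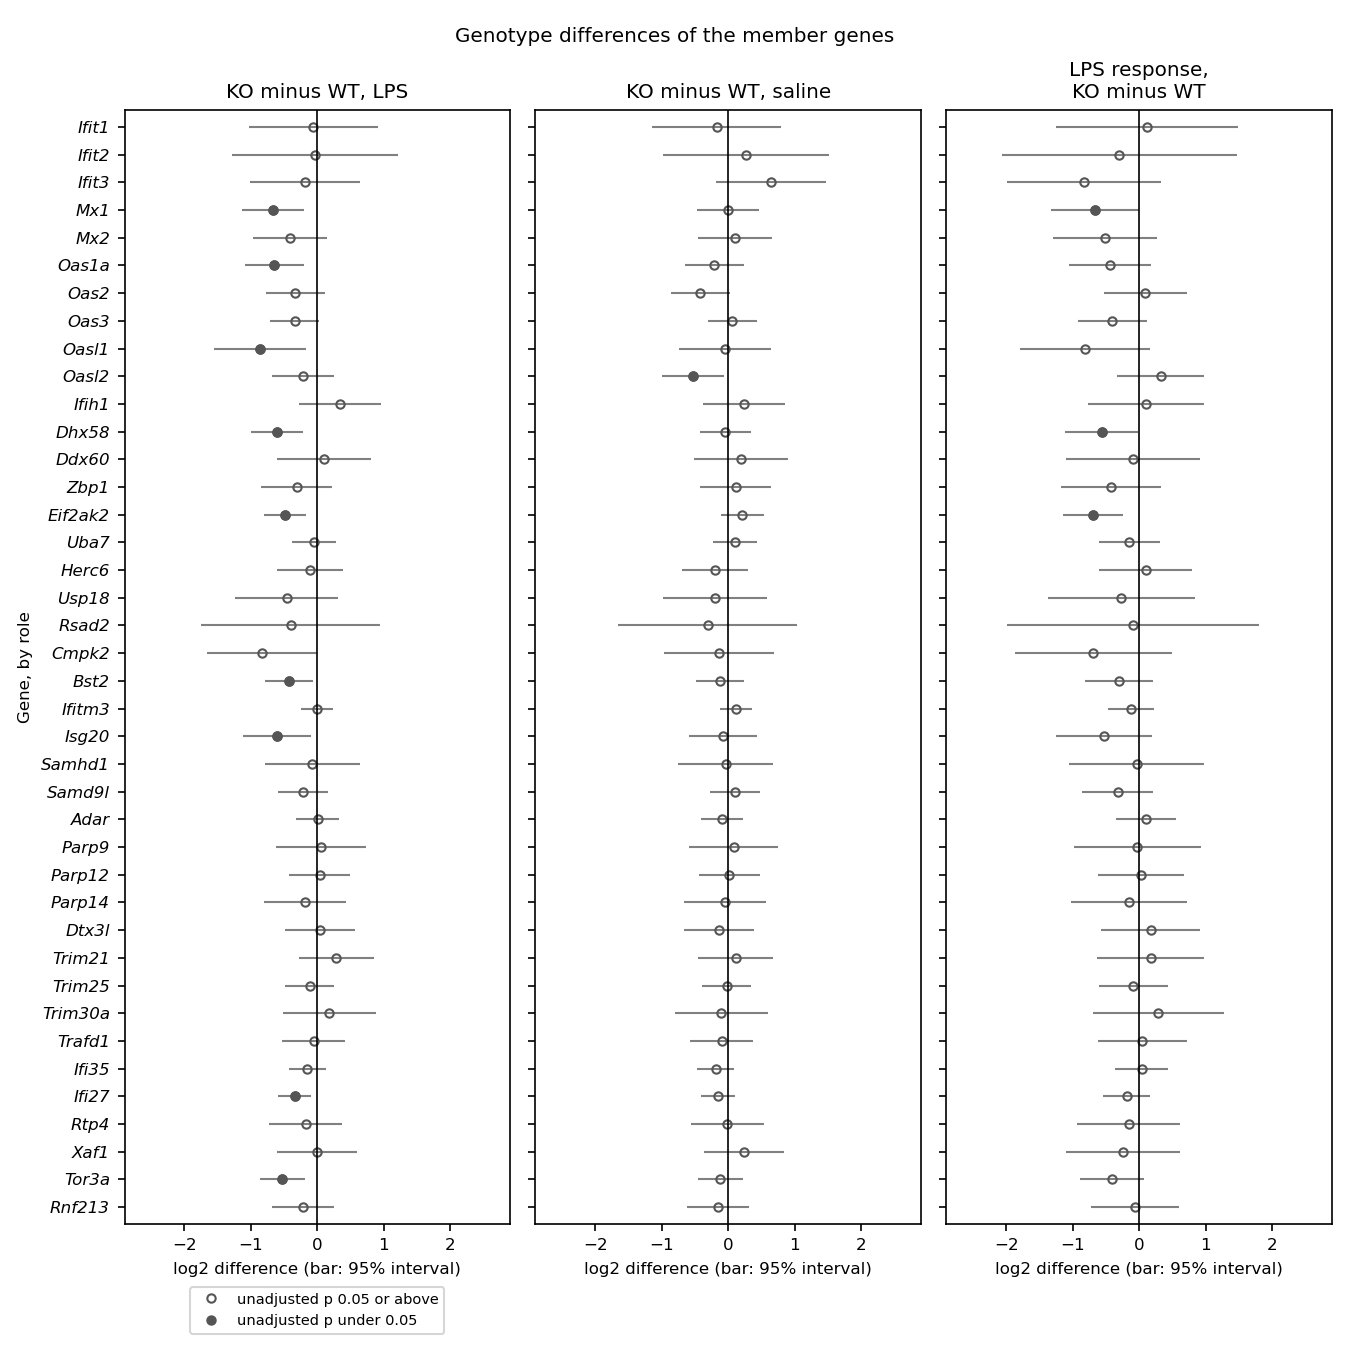
Genotype differences of the 40 members on the log2 scale (x axes) with 95% intervals as bars, for knockout minus wild-type after LPS (left), after saline (middle) and for the difference of the LPS responses (right). Filled points mark an unadjusted p under 0.05, 9 on the left, 1 in the middle and 3 on the right, and no difference was called after adjustment over all genes.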

How the data were processed

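Total RNA from mouse ventricular myocardium was hybridised to Affymetrix arrays, 1 for each of 16 samples. The values deposited by the authors are on a log2 scale, 1 per probe set, and were made with RMA, per the submitters' processing notes, in which arrays are background-corrected and quantile-normalized, and the version of RMA is not given in the sources used here. Quantile normalization gives arrays a common distribution, so a shift shared by all genes cannot be seen. The table held 45101 probe sets, of which 64 were controls, 34945 carried 1 gene symbol in the platform annotation, 932 several and 9160 none. Each of the 18193 genes was read at its brightest probe set by the mean of all arrays.

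The package limma 3.58.1 (R 4.3.3) estimated the 4 group means in a single linear model of all arrays (intensity trend, 12 residual degrees of freedom), with two-sided tests, Benjamini-Hochberg adjustment over all genes and calls at an adjusted p under 0.05. Errors of differences are standard errors, and intervals cover 95%. Each gene has a single spread shared by the 4 groups, so its errors are equal in both genotypes. Where SDs differ between groups, as among the LPS arrays, errors, intervals and p-values can be too small or too large. The script was tested on simulated data. There is no read depth, and precision is set by the number of arrays. Gene lists held 5 pathway and 9 cell type sets. The members and lists were chosen with earlier results of these data known. Every member could be named, and of other lists the ligands, Stat2, Irf9, Irf7 and the 3 largest changes per list and direction. Irf1, Irf3, Irf5, Irf8 and Bst2 as a marker beyond these were named after their values were seen. Promoter windows were RefSeq's. The alternatives were other probe set rules, a filter on dim genes, other variance models, array weights, centring, a replicate block, and fits with fewer arrays.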

Additional observations from a re-analysis of the deposited data

Results flagged for a closer look

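Single arrays that stood far from the other 3 of their group were looked for in every member and in the member mean, which made 164 tests, and 9 (5.49%) passed Dixon's 95% critical value. Chance flags about 1 in 20. In knockout LPS hearts, Herc6 had 8.084 in array 4, against 7.493 to 7.541 in the others, Ifitm3 had 12.475 in array 4, against 12.795 to 12.843, and Ifi27 had 8.578 in array 2, against 8.929 to 8.988. In knockout saline hearts, Cmpk2 had 5.4 in array 3, against 5.83 to 5.89. In wild-type LPS hearts, Oas3 had 5.1 in array 4, against 4.093 to 4.137, and Isg20 had 6.816 in array 1, against 7.926 to 8.152. In wild-type saline hearts, Oas1a had 6.138 and Ifi27 8.93 in array 4, against 5.921 to 5.954 and 8.807 to 8.816, and Usp18 had 3.938 in array 1, against 4.401 to 4.448. Wild-type saline arrays 1 and 4 are those high in skeletal muscle markers. The reason for any of these values was not tested.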

How the results depend on the processing

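No called difference of a member changed direction under any alternative listed. In knockout hearts Mx1 became called with array weights (adjusted p = 0.0281), centring (0.0382), the 2 groups alone (0.00764) and without wild-type LPS array 1 (0.0269) or 4 (0.00995), and Ifi27 with array weights (0.0350). In wild-type hearts Ifi27 lost its call in 10 settings (adjusted p between 0.0501 and 0.129), and Oas3 with the 2 groups alone (0.0532) or without both arrays high in skeletal muscle markers (0.0803). The Mx1 difference in knockout hearts stayed at 0.56 with the 2 groups alone and without wild-type LPS array 1 or 4. Those settings left the knockout arrays as they were and changed the arrays from which the spread was estimated. The cause of the changes in call was not tested. Without a single array, 37 to 38 members rose in knockout hearts and 39 to 40 in wild-type hearts, 0 were called between genotypes, and the number of genes called ranged between 3871 and 5527 for LPS in knockout hearts, 3006 and 4902 for LPS in wild-type hearts, 0 and 3 for knockout minus wild-type after LPS, and 1 and 5 after saline. Member means then ranged over 8.75 to 8.86 in knockout LPS, 6.36 to 6.46 in knockout saline, 8.84 to 9.24 in wild-type LPS and 6.41 to 6.47 in wild-type saline hearts. With every probe set tested, 7611 were called for LPS in knockout hearts (4744 genes in the main setting), 6024 in wild-type hearts (3798) and 2 between genotypes after LPS (1), more features being tested. Without both arrays high in skeletal muscle markers the wild-type count was 2061, and the count between genotypes after LPS was 0, as it was with the 2 groups alone. Between genotypes after saline, 1 gene was called in the main setting, 0 with dim genes left out, 21 with array weights and 14 with the 2 groups alone. With the mean of all probe sets, the member means were 8.14 in knockout LPS, 5.93 in knockout saline, 8.35 in wild-type LPS and 5.95 in wild-type saline hearts, since dimmer probe sets enter.

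With the replicate number as a block, 37 members rose in knockout hearts and 39 in wild-type hearts, 4487 and 3537 genes were called, and 0 members were called between genotypes. Same-numbered arrays had correlations of deviations between -0.271 and 0.330, with 3 of 24 over 0.1. Differently numbered arrays reached -0.422 and 0.346, so these correlations cannot decide whether the numbers pair the samples. The fit of the 2 groups alone gives no value for the difference of the LPS responses, and testing every probe set gives none for the member means.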
